A study of Mus musculus with 6 samples.

Results

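The genes described here encode 10 cytokine receptor chains of T cells, chosen by name as members of the common gamma chain, gp130 and IL-10 receptor families, and all 10 were found among the 54532 genes of the deposited table. They are Il10ra and Il10rb of the IL-10 receptor, Il2rg with its partners Il2rb, Il4ra, Il7r and Il21r, and Il6st with its partners Il6ra and Il27ra. All 10 passed the filter on low counts, so the set was not thinned by expression. The cells were CD4+ T cells from the spleens of C57BL/6 mice with experimental autoimmune encephalomyelitis (EAE, a model of multiple sclerosis in which T cells attack the brain and spinal cord), taken in its acute phase, and the readout was bulk RNA sequencing. The 3 Ogt-KD mice have the genotype Ogtfl/wt CD4-Cre, with 1 floxed and 1 wild-type allele of Ogt and a Cre recombinase under Cd4 control, which is active in T cells generally. Ogt, the gene of the only enzyme that puts O-GlcNAc on nuclear and cytoplasmic proteins, lies on the X chromosome, so X inactivation is known to leave such animals with a mixture of cells. The 3 control mice are wild type and are not said to carry Cre, so an effect of Cre or of linked DNA cannot be told apart from one of Ogt. The labels give neither litter nor age, and p-values measure the spread between these libraries.

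Cytokine receptors of these families have no enzyme of their own. Binding of the cytokine brings 2 or more chains together, the Janus kinases (JAKs) held by their tails phosphorylate tyrosines on the tails, and STAT transcription factors dock there and move to the nucleus. One chain is usually shared between several cytokines and the other gives the specificity. Il2rg encodes the common gamma chain, which holds JAK3 and serves IL-2, IL-4, IL-7, IL-9, IL-15 and IL-21. Il6st encodes gp130, the shared chain of IL-6, IL-27 and related cytokines, and Il10rb encodes a chain shared by IL-10, IL-22 and the lambda interferons. In EAE these inputs pull helper T cells in different directions: IL-6 and IL-21 favour the Th17 state, IL-27 and IL-10 restrain inflammation, IL-7 keeps resting T cells alive, and IL-2 sustains regulatory T cells.

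Receptors of the type that binds IL-2 or IL-6 carry a conserved tryptophan and serine box near the membrane, known as WSXWS, and receptors of the IL-10 type lack it. A search of the longest annotated coding sequence of each gene (GENCODE M21, GRCm38), codon by codon in the reading frame, found the codons of this box once in each of 7 members and not in Il10ra, Il10rb or Il27ra. A gene without a match lacks these codons in the sequence searched, and nothing more follows from that. Of 21584 coding genes searched in the same way, 71 held it, or 0.329%. The box is printed below in capitals between 9 flanking coding bases on each side, 5′ to 3′ on the coding strand, to show how alike these chains are at this place.
Il2rb, exon 7 of 10, chr15:78485763-78485777, minus strand: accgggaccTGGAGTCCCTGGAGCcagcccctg
Il2rg, exon 5 of 8, chrX:101266215-101266229, minus strand: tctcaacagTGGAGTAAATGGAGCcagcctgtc
Il4ra, exon 7 of 11, chr7:125571554-125571568, plus strand: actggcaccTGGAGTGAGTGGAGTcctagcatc
Il7r, exon 5 of 8, chr15:9511151-9511165, minus strand: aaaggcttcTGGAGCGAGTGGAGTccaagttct
Il21r, exon 6 of 9, chr7:125628998-125629012, plus strand: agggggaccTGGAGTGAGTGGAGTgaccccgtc
Il6ra, exon 6 of 10, chr3:89885930-89885944, minus strand: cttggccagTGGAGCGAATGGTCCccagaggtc
Il6st, exon 8 of 17, chr13:112490597-112490611, plus strand: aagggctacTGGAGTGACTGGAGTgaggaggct

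A second short motif was searched in the same sequences. STAT3 is known to dock on tyrosines followed 3 residues later by glutamine, written YXXQ, in the tails of the IL-10 receptor alpha chain and of gp130. The same search found YXXQ codons 3 times in Il10ra, all in its last exon (exon 7 of 7), and 5 times in Il6st, of which 4 lay in its last exon (exon 17 of 17). The motif is short and 39.9% of the 21584 coding genes held it somewhere, so a match describes the sequence and is not shown to be a docking site. Il21r also had 3 matches, 1 of them in its last exon (exon 9 of 9), Il10rb and Il6ra had 2 each, Il2rb and Il2rg 1 each, and Il4ra, Il7r and Il27ra none, so the motif is not particular to Il10ra and Il6st. Those of Il10ra, the chain with the largest difference below, at codons 390, 443 and 493 of 575, are printed with the 4 codons in capitals.
Il10ra codons 390 to 393, chr9:45256079-45256090, minus strand: cagcttggaTATACCCATCAGgaccaggat
Il10ra codons 443 to 446, chr9:45255920-45255931, minus strand: ttccagggcTACCAGAAACAGaccagatgg
Il10ra codons 493 to 496, chr9:45255770-45255781, minus strand: gccgcaggtTATTTGAAACAGgagtctcaa

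Total counts ran from 18969803 to 25683453 in the Ogt-KD libraries and from 18127031 to 24917282 in the control libraries. Ogt itself, the targeted gene, stood at 661.9, 598.8 and 458.6 CPM in Ogt-KD replicates 1, 2 and 3, against 599.2, 627.9 and 562.4 CPM in the controls. CPM here is the read count scaled to a common library size with edgeR's TMM factors. The groups overlapped, at -0.06 on the log2 scale (SE 0.15), and a count over the whole gene includes exons that a floxed deletion can leave in place. T cell markers (7 of 7 detected, Cd3e and Cd4 among them) summed to 2905 to 3065 CPM in Ogt-KD and 2874 to 3205 CPM in control libraries. On the first principal component replicate 3 of both groups lay at one end (-38.4 in Ogt-KD and -40.7 in control), Ogt-KD replicates 1 and 2 at the other (35.7 and 42.4), and control replicates 1 and 2 between them (-6.9 and 8.0). Macrophage markers (7 genes) summed to 3071 CPM in Ogt-KD replicate 3 and 3383 CPM in control replicate 3, against 732 to 796 CPM in the other Ogt-KD and 1477 to 1486 CPM in the other control libraries.

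**Figure D1:**
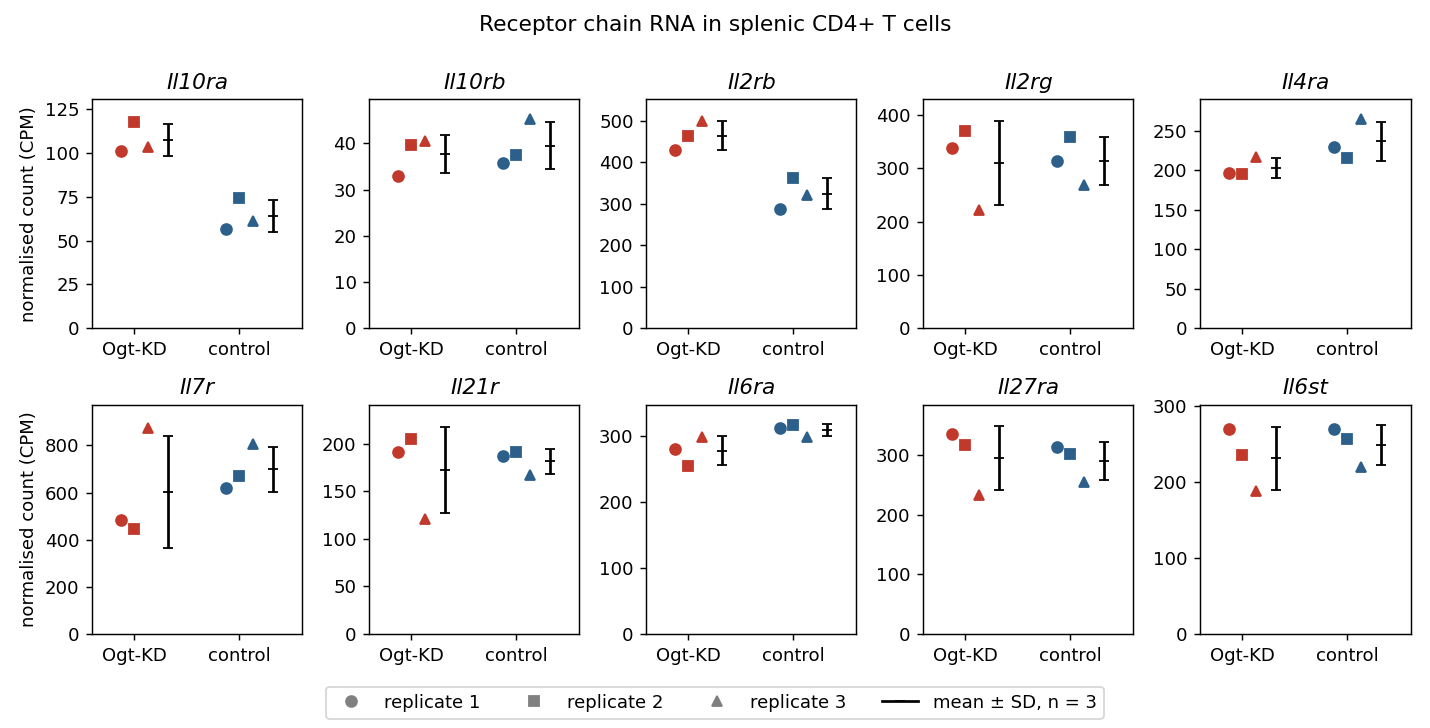
Normalised read count (CPM, y axis from 0) of each receptor chain in the 3 Ogt-KD (red, left) and 3 control libraries (blue, right), with the marker shape giving the replicate number and the black bar the mean ± SD. Il10ra and Il2rb are the 2 chains whose groups do not overlap, and Il7r, Il2rg and Il21r show the wide spread that Ogt-KD replicate 3 brings.

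The comparison of Ogt-KD with control cells asks which receptor chains differed in RNA level when Ogt was targeted in T cells. Of the 10 chains, Il10ra and Il2rb lay higher in every Ogt-KD library than in any control library, no chain lay lower in that sense, and the other 8 overlapped. Over all 16075 genes tested, 7.43% were higher and 5.88% lower without overlap. With edgeR's quasi-likelihood test and Benjamini-Hochberg adjustment over all genes, 0 of the 10 chains passed an adjusted p of 0.05. The background of that test was 1 gene higher (0.00622%) and 0 lower (0%). At an unadjusted p under 0.05, 2 chains were higher, against 5.04% of all genes, and 0 lower, against 2.48%. Of the 10 chains 3 had a log2 fold change above 0, where 49% of all genes did, and 7 below 0, where 51% did. Their median was -0.07, against -0.005 over all genes. Without Ogt-KD replicate 3 these counts were 6 and 4, and 3 chains, Il7r, Il4ra and Il6ra, were lower at an unadjusted p under 0.05.

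Replicates 2 and 3 of the groups deviated together by number (correlation 0.346 and 0.523). Ogt-KD replicate 1 correlated less with control replicate 1 (0.109) than with control replicate 2 (0.267). The test was repeated with the replicate number as a block. With it 1 chain, Il10ra, rose and 0 fell, against 0.199% of genes higher and 0.0933% lower. At an unadjusted p under 0.05 in that fit 2 chains were higher (background 7.55%) and 1, Il4ra, was lower (background 5.63%). The labels state no pairing, the pairing was read from the same counts, and p-values of this fit can be too small. DESeq2 without a block called 2 chains, Il10ra and Il2rb, as higher and 0 as lower, against a background of 0.572% higher and 0.212% lower. At an unadjusted p under 0.05 DESeq2 had 2 higher and 0 lower, against 5.14% and 2.32% of genes. Bulk RNA cannot tell more RNA per cell from more cells of a kind that makes it, which holds for every difference given here.

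**Figure D2:**
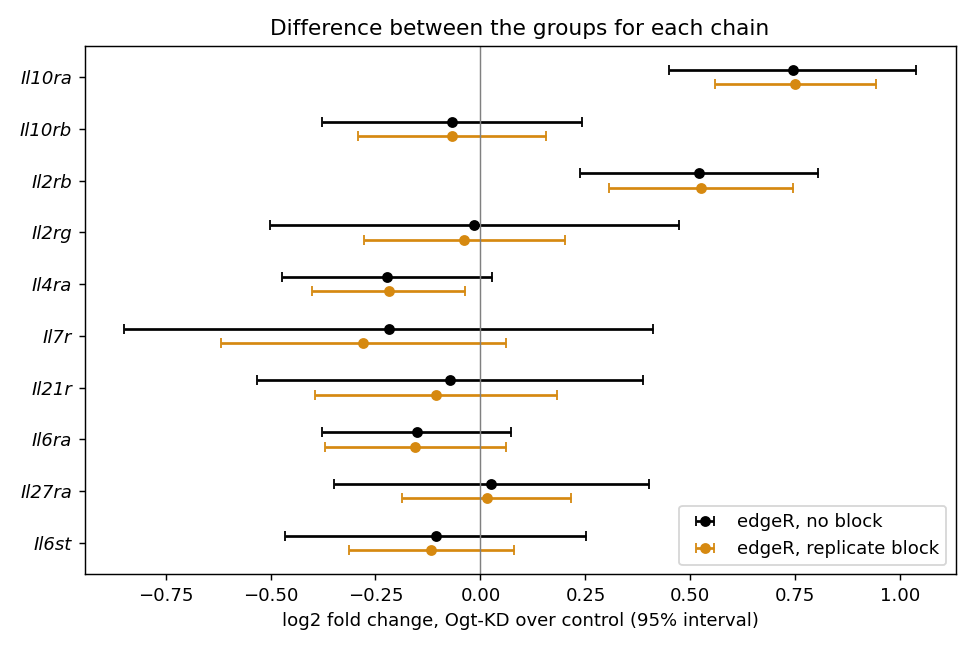
Difference between Ogt-KD and control cells for each chain on the log2 scale (x axis, points, above 0 where Ogt-KD is higher) with its 95% interval (bars), from edgeR without a block (black) and with the replicate number as a block (orange). The intervals of Il10ra and Il2rb lie above 0 in both fits, and that of Il4ra lies below 0 in the blocked fit only, before any adjustment for the number of genes.

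Il10ra (chromosome 9, 45253837-45269149, minus strand, GRCm38) encodes the chain that binds IL-10 and recruits STAT3, and its YXXQ codons are printed above. It stood at 101.1, 117.6 and 103.1 CPM in Ogt-KD replicates 1, 2 and 3, against 56.4, 74.4 and 61.3 CPM in control replicates 1, 2 and 3. The lowest Ogt-KD library was thus well above the highest control library, and in both groups replicate 2 was the highest. Means were 107 ± 9.0 CPM in Ogt-KD and 64.0 ± 9.3 CPM in control cells (SD, n = 3 each), a 1.67-fold difference. On the log2 scale that is 0.74 (SE 0.12, 95% interval 0.45 to 1.04), rank 15 of 16075 genes by p, and the adjusted p in edgeR was 0.480. With the replicate block Il10ra rose by 0.75 (SE 0.08, adjusted p in edgeR 0.0363), and that call was lost without the pair of replicate 2 libraries (0.80, adjusted p in edgeR 0.244). DESeq2 gave an adjusted p of 0.00192, and the authors' deposited table gives 0.00471. A fold change of this size or more was found for 5.03% of all genes tested. A pair of annotated features lie inside the gene, the pseudogene Gm20612 on the other strand with 7 to 31 counts and the microRNA gene Mir7086 with 0 to 6 counts, against 1088 to 2580 counts of Il10ra.

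Il10rb (chromosome 16, 91406164-91425834, plus strand), the second chain of the same receptor, did not follow Il10ra. Its counts were 32.9, 39.5 and 40.5 CPM in Ogt-KD and 35.8, 37.5 and 45.2 CPM in control libraries, which overlapped (log2 fold change -0.07, SE 0.13). The ratio of Il10ra to Il10rb in FPKM, the authors' read count scaled by gene length and library size, was 3.35, 3.24 and 2.77 in Ogt-KD replicates 1, 2 and 3, against 1.72, 2.16 and 1.48 in control replicates. Every Ogt-KD library thus held more Il10ra per Il10rb than any control library. The log2 ratios averaged 0.82 apart, with an SD of 0.15 in Ogt-KD and 0.28 in control cells. The exact two-sided permutation test gave p = 0.1, the smallest that 3 against 3 libraries allow, and 0.267 after adjustment over 8 chain ratios. Il10, the ligand, was low at 3.67, 7.15 and 6.39 CPM in Ogt-KD and 3.56, 4.79 and 5.13 CPM in control libraries, with overlapping groups (log2 fold change 0.35, SE 0.29).

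Il2rb (chromosome 15, 78479256-78495271, minus strand) encodes the beta chain that signals for both IL-2 and IL-15 and recruits STAT5. It stood at 429.0, 463.9 and 499.6 CPM in Ogt-KD replicates 1, 2 and 3 and at 287.1, 361.7 and 321.9 CPM in control replicates. As for Il10ra, no Ogt-KD library reached down to the control range. Means were 464 ± 35.3 CPM in Ogt-KD and 324 ± 37.3 CPM in control cells, a 1.43-fold difference, or 0.52 on the log2 scale (SE 0.12, 95% interval 0.24 to 0.80), which 8.69% of all genes reached or passed. Its adjusted p in edgeR was 0.512 without and 0.0743 with the block. DESeq2 gave 0.0370, and the authors' deposited table gives 0.0672.

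The alpha chain of the IL-2 receptor, Il2ra (CD25), which raises affinity for IL-2 and is no member of the set, had a like pattern. It stood at 85.1, 111.6 and 96.8 CPM in Ogt-KD and 54.7, 83.7 and 62.6 CPM in control libraries (log2 fold change 0.55, SE 0.18, adjusted p in edgeR 0.583). The Ogt-KD values lay just above the control values. The ratio of Il2ra to Il2rb in FPKM was 0.149, 0.181 and 0.145 in Ogt-KD and 0.143, 0.174 and 0.146 in control libraries, and the groups overlapped (log2 difference 0.04, exact permutation p = 0.6, adjusted 0.8).

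Il2rg (X chromosome, 101264378-101268255, minus strand), the common gamma chain, showed no such shift. Its values were 338.2, 370.1 and 220.9 CPM in Ogt-KD replicates 1, 2 and 3 and 312.5, 357.8 and 268.2 CPM in control replicates. Replicate 3 was the lowest library of both groups, and Ogt-KD replicate 3 the lowest of all. The log2 fold change was -0.01 (SE 0.21), with an interval of -0.50 to 0.47 that leaves room for changes of either sign, and it was 0.18 without Ogt-KD replicate 3. The span of the predicted gene Gm20489 covers all 3878 bases of Il2rg on the same strand with 0 to 3 counts. That of Gm21970 overlaps Il10rb by 13288 bases with 0 counts. The levels of these chains may depend on how shared reads were assigned, and overlap of exons was not examined. In FPKM, Il2rb stood to Il2rg as 0.706, 0.698 and 1.26 in Ogt-KD replicates 1, 2 and 3 and as 0.512, 0.563 and 0.668 in control replicates. The ratio was higher in every Ogt-KD library (log2 difference 0.56, exact permutation p = 0.1, adjusted 0.267). Without Ogt-KD replicate 3 that difference was 0.28.

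Il7r (chromosome 15, 9505788-9530176, minus strand), the IL-7 receptor alpha chain of resting and memory T cells, varied most between libraries of 1 group. It stood at 484.9, 443.5 and 873.2 CPM in Ogt-KD replicates 1, 2 and 3, against 620.6, 671.5 and 804.5 CPM in control replicates. Ogt-KD replicates 1 and 2 lay below every control library, and Ogt-KD replicate 3 above every control library. The log2 fold change was -0.22 (SE 0.27, 95% interval -0.85 to 0.41). Without Ogt-KD replicate 3 it was -0.59 (adjusted p in edgeR 0.124), and without replicate 3 of both groups -0.48 (adjusted p 0.110). Macrophage markers were highest in the same replicate 3 libraries in each group, as given above, and their part in the Il7r values was not tested. Of 5 listed transcription factors that bind Il7r, 4 lay below and 1 above 0. Of these 0 passed in edgeR with or without the block or in DESeq2. Without the block 0 had an unadjusted p under 0.05, against 5.04% of all genes higher and 2.48% lower. Foxo1, a transcription factor known to activate Il7r, had -0.24 on the log2 scale (SE 0.15), and Runx1, another factor of the Il7r locus, -0.26 (SE 0.12). Gabpa had -0.08 (SE 0.08), Ets1 -0.07 (SE 0.12) and Gfi1 0.10 (SE 0.23).

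Il4ra and Il21r are neighbours on chromosome 7, 24.0 kb apart and both on the plus strand. Il4ra (125552120-125579474) encodes the IL-4 binding chain that recruits STAT6. It stood at 197.1, 195.0 and 217.2 CPM in Ogt-KD replicates 1, 2 and 3, against 230.0, 216.0 and 264.7 CPM in control replicates. The groups touched only through Ogt-KD replicate 3 and control replicate 2. Its log2 fold change of -0.22 (SE 0.11, 95% interval -0.47 to 0.03) gave the smallest p among the chains below 0, with an adjusted p in edgeR of 0.685. Il21r (125603429-125633570), the IL-21 binding chain that mainly activates STAT3, stood at 191.6, 205.6 and 120.9 CPM in Ogt-KD and 186.7, 191.0 and 167.0 CPM in control libraries. Ogt-KD replicate 3 was low and the other 2 Ogt-KD libraries were above all controls (log2 fold change -0.07, SE 0.19, and 0.13 without Ogt-KD replicate 3). The ratio of Il21r to Il2rg in FPKM differed little between libraries, at 0.407, 0.399 and 0.393 in Ogt-KD and 0.429, 0.383 and 0.447 in control libraries.

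In the gp130 family the groups of all 3 chains overlapped. Il6ra (chromosome 3, 89864059-89913196, minus strand), which binds IL-6, stood at 280.7, 254.2 and 298.8 CPM in Ogt-KD and 311.9, 316.0 and 298.5 CPM in control libraries. The highest Ogt-KD library and the lowest control library were almost level, and the log2 fold change was -0.15 (SE 0.10, 95% interval -0.38 to 0.07). Il27ra (chromosome 8, 84030294-84042589, minus strand), which binds IL-27, stood at 335.2, 317.2 and 233.5 CPM in Ogt-KD and 314.4, 301.4 and 254.0 CPM in control libraries, with overlap (log2 fold change 0.03, SE 0.16). Its annotation overlaps that of the neighbour Palm3 by 2 bases. Il6st (chromosome 13, 112464070-112510086, plus strand), gp130 itself, stood at 270.2, 234.8 and 187.6 CPM in Ogt-KD and 269.0, 257.1 and 219.6 CPM in control libraries (log2 fold change -0.11, SE 0.15, 95% interval -0.47 to 0.25). Both Il27ra and Il6st were lowest in replicate 3 of their group.

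Set against each other, Il27ra and Il6st gave a ratio that varied little within a group. Il27ra over Il6st in FPKM was 3.94, 4.29 and 3.95 in Ogt-KD and 3.71, 3.72 and 3.67 in control libraries. The control libraries were nearly equal and every Ogt-KD library lay above them, by 0.13 on the log2 scale (exact permutation p = 0.1, adjusted 0.267). Il6ra over Il6st was 1.33, 1.39 and 2.05 in Ogt-KD and 1.49, 1.58 and 1.75 in control libraries, with overlap (log2 difference -0.04, exact permutation p = 0.9). Of the 8 ratios, 3 did not overlap between the groups, those of Il10ra to Il10rb, Il2rb to Il2rg and Il27ra to Il6st. A ratio unrelated to group would separate in this way with probability 0.1. The ratios share chains, and Il10ra and Il2rb separated by group on their own, so the 3 are not independent results. None of the 8 ratios passed after adjustment, and 3 against 3 libraries could not have passed.

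**Figure D3:**
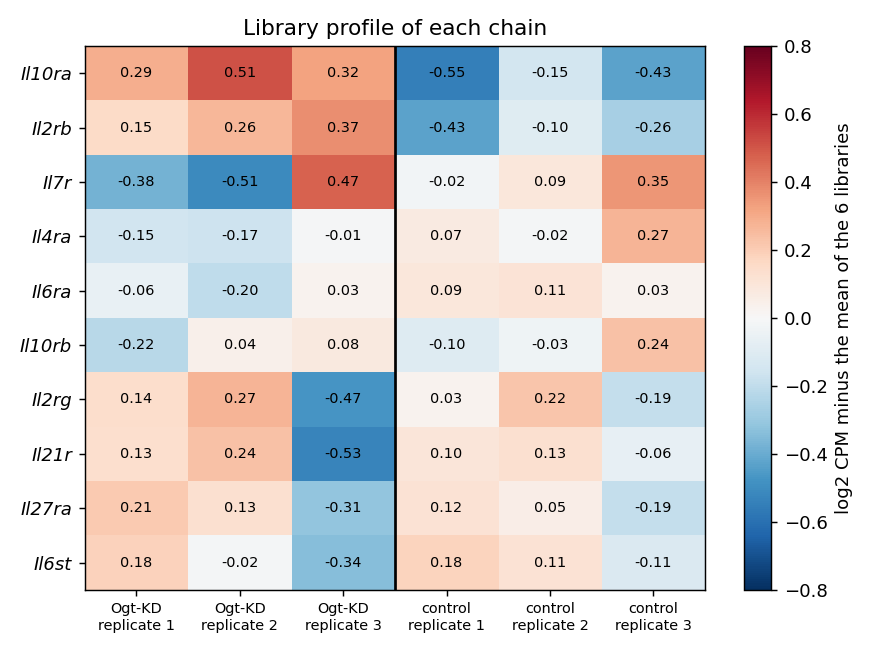
Deviation of each chain's log2 CPM from its mean over the 6 libraries (colour and printed value, rows are chains, columns are libraries with Ogt-KD left of the line). Il10ra and Il2rb split by group, while Il2rg, Il21r, Il27ra and Il6st are lowest in Ogt-KD replicate 3 and Il7r is highest there.

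Most chains showed 1 of 2 patterns over the 6 libraries. Il10ra and Il2rb followed the groups: their centred log2 values ran from 0.15 to 0.51 in Ogt-KD and from -0.55 to -0.10 in control libraries. Il2rg, Il21r, Il27ra and Il6st were lowest in Ogt-KD replicate 3, at -0.47, -0.53, -0.31 and -0.34. Il7r had its highest value there, 0.47, and its next highest in control replicate 3, 0.35. The largest ratio between the highest and lowest library was 2.08 for Il10ra, followed by 1.97 for Il7r, and the smallest was 1.24 for Il6ra.

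Among the genes ranked, those whose library profile was most like that of Il10ra were Ikzf2, Tnfrsf4, Slc39a4, Car5b and Ttc39c. Likeness was the root-mean-square difference of centred log2 CPM over the 6 libraries, which all genes share. It was 0.043 for Ikzf2, 0.054 for Tnfrsf4, 0.065 for Slc39a4, 0.084 for Car5b and 0.088 for Ttc39c, against a median of 0.442 over 10981 genes. Ikzf2, which encodes Helios, a factor of many regulatory T cells, stood at 205.9, 248.7 and 219.0 CPM in Ogt-KD and 117.8, 167.2 and 131.9 CPM in control libraries. Tnfrsf4, the costimulatory receptor OX40, stood at 65.0, 81.0 and 74.8 CPM in Ogt-KD and 39.2, 49.4 and 42.1 CPM in control libraries.

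For Il4ra, the chain below 0 with the smallest p, the nearest profiles were Canx, Exosc2, Parp16, Ttc4 and Klhdc1. Their root-mean-square differences ran from 0.032 for Canx to 0.049 for Klhdc1, and the median of the ranked genes was 0.219. Here too the ranking fixed their place below the median. Canx, which encodes the endoplasmic reticulum chaperone calnexin, stood at 215.7, 213.5 and 236.6 CPM in Ogt-KD and 260.2, 233.8 and 277.5 CPM in control libraries. As for Il4ra, only Ogt-KD replicate 3 reached the control range.

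Summed markers of particular T cell states also separated by group, as Il10ra and Il2rb did. Such separation was not particular to these states, as given below. Over all genes tested 49% lay above and 51% below 0, and 7.43% were higher and 5.88% lower without overlap. The 6 regulatory T cell markers summed to 687 to 855 CPM in Ogt-KD and 438 to 623 CPM in control libraries, without overlap, and all 6 had a log2 fold change above 0 (median 0.62). Il2ra, 1 of these 6, is also an IL-2 receptor chain. Ikzf2 and Tnfrsf4, the profiles nearest to Il10ra, are also among these 6, so that likeness and this sum share genes. The 6 Th1 markers summed to 187 to 321 CPM in Ogt-KD and 135 to 164 CPM in control libraries, also without overlap, and all 6 were above 0 (median 0.89). The 6 naive T cell markers summed to 2544 to 2862 CPM in Ogt-KD and 3189 to 3612 CPM in control libraries, all 6 below 0 (median -0.27). Their part in the Il10ra and Il2rb values was not tested.

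Markers of other cells were present too, and their summed levels differed between the libraries. Dendritic cell markers (8 of 8 above 0, median 1.17) summed to 839 to 2354 CPM in Ogt-KD and 466 to 1011 CPM in control libraries, and erythroid markers (6 of 6 above 0) to 38.8 to 184 CPM in Ogt-KD and 16.1 to 45.3 CPM in control libraries. B cell markers (6 of 6 above 0, median 0.32) summed to 121 to 163 CPM in Ogt-KD and 91.5 to 130 CPM in control libraries. CD8 and NK markers (4 of 5 tested above 0) summed to 37.9 to 40.7 CPM in Ogt-KD and 34.5 to 37.5 CPM in control libraries, without overlap. Macrophage markers (1 of 7 above 0) summed to 732 to 3071 CPM in Ogt-KD and 1477 to 3383 CPM in control libraries. Neutrophil markers (6 of 6 above 0, median 0.37) summed to 84.9 to 203 CPM in Ogt-KD and 72.7 to 169.6 CPM in control libraries. Plasma cell markers summed to 175 to 306 CPM in Ogt-KD and 131 to 323 CPM in control libraries, and platelet markers to 4.80 to 5.43 CPM in Ogt-KD and 3.84 to 5.35 CPM in control libraries. None of these lists had a marker at 0 in all 6 libraries. The part of these cells in the receptor values was not tested. Without replicate 3 of both groups, the libraries with the most macrophage RNA, the log2 fold change of Il10ra was 0.74 and that of Il2rb 0.46. Macrophage sums of the libraries left still separated by group, at 732 and 796 CPM in Ogt-KD and 1477 and 1486 CPM in control libraries. Dendritic cell sums did too, at 1646 and 2354 CPM in Ogt-KD and 989 and 1011 CPM in control libraries. That fit is therefore no test of the part of these cells.

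**Figure D4:**
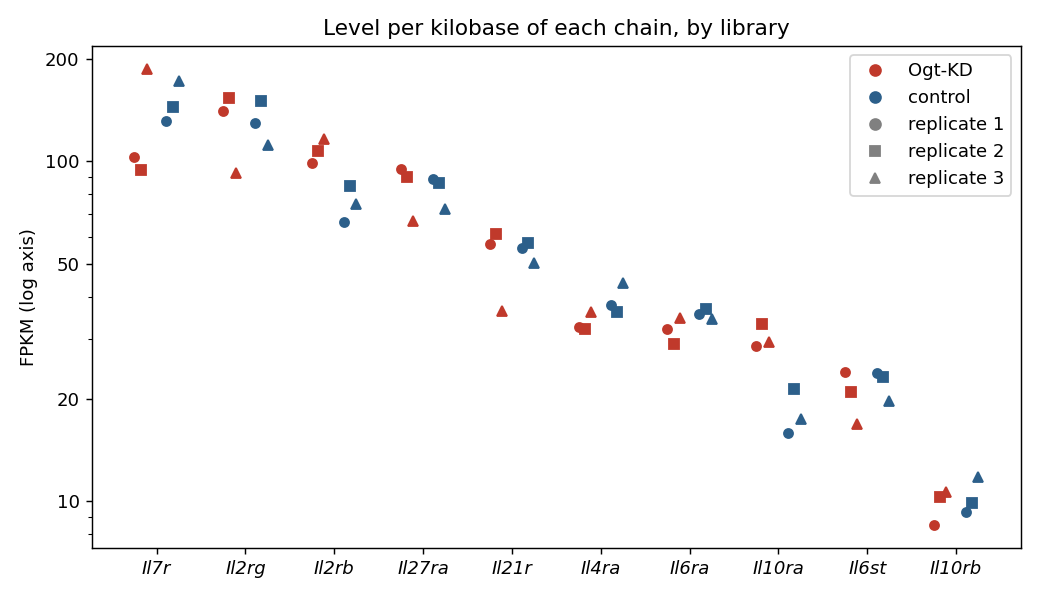
Level per kilobase (FPKM on a log axis) of each chain in each library, ordered by the mean over the 6 libraries, with Ogt-KD in red left of control in blue and the marker shape giving the replicate. Il7r and Il2rg are at the top, Il10rb at the bottom, and Il10ra is above Il6st in every Ogt-KD library and below it in every control library.

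Per kilobase, the order of levels over the 6 libraries was Il7r, Il2rg, Il2rb, Il27ra, Il21r, Il4ra, Il6ra, Il10ra, Il6st and Il10rb. Il7r averaged 128 ± 51.3 FPKM in Ogt-KD and 149 ± 20.7 FPKM in control cells (SD, n = 3 each), and Il2rg 129 ± 32.1 FPKM in Ogt-KD and 130 ± 19.2 FPKM in control cells. Il10rb, the lowest, averaged 9.81 ± 1.12 FPKM in Ogt-KD and 10.3 ± 1.33 FPKM in control cells. Neighbours in the order overlapped in range over the 6 libraries, with 2 exceptions. Il27ra (66.7 to 94.8 FPKM) stood clear of Il21r (36.3 to 61.2), and Il6st (16.9 to 24.1) stood clear of Il10rb (8.53 to 11.8). Ranges pooled over both groups do not compare chains within a library. Il21r lay above Il4ra in all 6 libraries though their ranges overlapped, by the least in Ogt-KD replicate 3 (36.3 against 36.1 FPKM). Among all genes tested Il7r lay at the 98.1 percentile of mean FPKM and Il10rb at the 66.9 percentile.

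Il10ra and Il2rb stood at different places in the order of the 2 groups. Il10ra averaged 30.4 ± 2.49 FPKM in Ogt-KD and 18.2 ± 2.79 FPKM in control cells. Il10ra ranked above Il6st in all 3 Ogt-KD libraries and below it in all 3 control libraries. Il2rb, at 107 ± 8.73 FPKM in Ogt-KD and 75.2 ± 9.27 FPKM in control cells, ranked above Il27ra in all 3 Ogt-KD libraries, and among the controls in replicate 3 only.

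**Figure D5:**
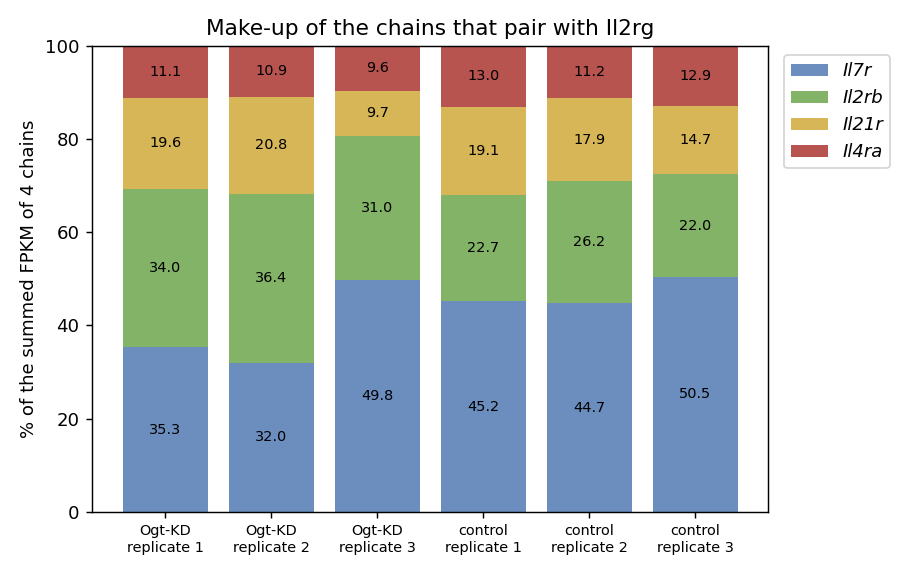
Share of each of the 4 chains that pair with Il2rg in their summed FPKM (y axis, percent, stacked to 100) in each library, Ogt-KD left and control right. The Il2rb share is 31.0 to 36.4% in Ogt-KD and 22.0 to 26.2% in control libraries.

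The 4 partners of the common gamma chain made up a similar total in both groups. It was 320 ± 47.9 FPKM in Ogt-KD and 318 ± 25.3 FPKM in control cells. Shares of 1 sum depend on each other, and differences in share were not tested. Il2rb separated by group on its own, so its share is not an independent result. Il2rb made up 34.0%, 36.4% and 31.0% of the sum in Ogt-KD replicates 1, 2 and 3, against 22.7%, 26.2% and 22.0% in control replicates. Il7r made up 35.3%, 31.95% and 49.8% in Ogt-KD and 45.2%, 44.7% and 50.5% in control libraries. In Ogt-KD replicates 1 and 2 the Il2rb and Il7r shares were close to each other, whereas the Il7r share was well above that of Il2rb in Ogt-KD replicate 3 and in every control library. Il4ra made up 9.6 to 11.1% in Ogt-KD and 11.2 to 13.01% in control libraries. Its groups were only just apart, at 11.15% in Ogt-KD replicate 1 and 11.18% in control replicate 2. Il21r made up 9.7 to 20.8% in Ogt-KD and 14.7 to 19.1% in control libraries, with overlap. The sum of the partners stood to Il2rg as 2.08, 1.92 and 4.07 in Ogt-KD and as 2.25, 2.15 and 3.04 in control libraries, highest in replicate 3 of both groups. These are RNA levels, and receptor protein on the cell surface was not measured.

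Other receptor chains of these and related families were listed with earlier results of these data known, and most lay above 0. Of 26 listed chains 19 passed the filter, and 17 of the 19 had a log2 fold change above 0, with a median of 0.43, against 49% and a median of -0.005 over all genes. None passed in edgeR without or with the block or in DESeq2, where at most 0.572% of all genes did in either direction. At an unadjusted p under 0.05 5 were higher and 1 was lower, against 5.04% and 2.48% of all genes. Groups without overlap were also 5 higher and 1 lower, against 7.43% and 5.88% of all genes. Il9r, the IL-9 binding partner of the common gamma chain, stood at 29.5, 35.2 and 24.0 CPM in Ogt-KD and 17.7, 21.9 and 19.2 CPM in control libraries (log2 fold change 0.59, SE 0.17, adjusted p in edgeR 0.536). Il12rb1, a chain of the IL-12 and IL-23 receptors, had 0.62 (SE 0.20), with groups that overlapped. Ifngr2, the signalling chain of the interferon gamma receptor, lay lower at 34.3, 39.9 and 37.2 CPM in Ogt-KD and 48.5, 44.7 and 46.2 CPM in control libraries (log2 fold change -0.32, SE 0.10, adjusted p in edgeR 0.556). Il22ra1 had 0 counts in every library. Il2ra and Il12rb2, both in this list, are also among the regulatory T cell and Th1 markers given above. The part of dendritic and other cells in the values of this list was not tested.

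The ligands were mostly low. Of 24 listed, 12 passed the filter, and 9 of the 12 lay above 0, against 49% of all genes. None passed the test in edgeR with or without the block or in DESeq2, where at most 0.572% of all genes did in either direction. At an unadjusted p under 0.05 there were 0, against 5.04% of all genes higher and 2.48% lower. The ligand with the most counts was Clcf1, a gp130 family cytokine, at 128.2, 130.4 and 86.0 CPM in Ogt-KD and 126.7, 133.1 and 103.8 CPM in control libraries. Il21 stood at 20.5, 15.8 and 34.9 CPM in Ogt-KD and 21.7, 24.2 and 38.0 CPM in control libraries, highest in replicate 3 of both groups. Ebi3, a subunit of IL-27 and IL-35, and Osm, oncostatin M, had 0.41 (SE 0.24) and 0.29 (SE 0.23) on the log2 scale. Il12b stood at 1.03, 1.52 and 0.440 CPM in Ogt-KD and 0.548, 0.805 and 0.507 CPM in control libraries, too low for a precise fold.

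None of the listed genes that act between the receptors and the nucleus passed a test, and few of all genes did. The shares of all genes called higher and lower were 0.00622% and 0% in edgeR without the block. They were 0.199% and 0.0933% with the block, and 0.572% and 0.212% in DESeq2. Of 17 tested kinases, adaptors and phosphatases 8 lay above and 9 below 0, with a range of -0.36 to 0.33, and 0 passed in edgeR without or with the block or in DESeq2. At an unadjusted p under 0.05 1 was higher, Pias3 (0.33, SE 0.10), an inhibitor of STAT3, and 1 lower, Irs2 (-0.36, SE 0.13), an adaptor of the IL-4 receptor, against 5.04% and 2.48% of all genes. Jak1, the kinase used by nearly all of these receptors, stood at 603, 564 and 689 CPM in Ogt-KD and 734, 730 and 720 CPM in control libraries, without overlap (log2 fold change -0.23, SE 0.11, adjusted p in edgeR 0.685). Jak2 had 0.21 (SE 0.11), and Jak3, the kinase of the common gamma chain, -0.03 (SE 0.21). The 6 STAT genes described here ran from -0.18 for Stat6 to 0.15, 3 above and 3 below 0. Of these 0 passed in edgeR with or without the block or in DESeq2. At an unadjusted p under 0.05 there were 0, against 5.04% of all genes higher and 2.48% lower. Stat3, which IL-10, IL-6 and IL-21 activate, had -0.05 (SE 0.15), and Stat4 and Stat5a had 0.08 (SE 0.16) and 0.06 (SE 0.14).

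Among 24 genes known as targets of STAT3, STAT5 or STAT6, 16 lay above and 8 below 0 (median 0.16). None passed in edgeR without the block, where 7 were higher and 2 lower at an unadjusted p under 0.05, against 5.04% and 2.48% of all genes. With the block 3 rose, Cish, Socs2 and Foxp3, and 0 fell, against 0.199% and 0.0933% of all genes. Cish, a STAT5-induced feedback inhibitor, stood at 65.1, 75.7 and 54.3 CPM in Ogt-KD and 40.8, 50.6 and 33.5 CPM in control libraries (0.64 on the log2 scale, SE 0.18, adjusted p in edgeR 0.0443 for the blocked and 0.537 for the unblocked test). Its Ogt-KD libraries all lay above the control libraries. Socs2, another feedback inhibitor of STAT5 signalling, had a log2 fold change of 0.87 without overlap between the groups (adjusted p in edgeR 0.0480 with the block). Foxp3, the regulatory T cell factor sustained by IL-2, had 0.70, and its groups overlapped by a little (adjusted p in edgeR 0.0427 with the block). Without the pair of replicate 2 libraries the blocked test called none of these 3 genes (adjusted p in edgeR 0.274 for Cish, 0.273 for Socs2 and 0.266 for Foxp3). DESeq2 called 2 higher, Socs2 and Prdm1, and 1 lower, Klf2, against 0.572% and 0.212% of all genes.

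Not all targets went the same way. Bcl2l1, a survival gene, had 0.44 (SE 0.11), and Prdm1, which encodes Blimp-1, 0.69 (SE 0.15), both without overlap between the groups. Socs3, the STAT3-induced inhibitor of gp130 signalling, lay lower, at 309.4, 329.2 and 298.9 CPM in Ogt-KD and 402.2, 344.1 and 353.7 CPM in control libraries (log2 fold change -0.23, SE 0.10, adjusted p in edgeR 0.669). Klf2, a quiescence factor, had -0.49 (SE 0.10, adjusted p in edgeR 0.483), again without overlap. Fos, an immediate early gene, had the largest difference of the list, -0.89 (SE 0.31, adjusted p in edgeR 0.596 without and 0.0507 with the block), at 127.4, 168.5 and 91.6 CPM in Ogt-KD and 184.4, 342.6 and 190.4 CPM in control libraries, without overlap. Socs3 and Fos were picked after their values were seen. Foxp3, Il2ra and Klf2 are also among the T cell state markers given above, so these counts are not independent of those sums.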

How the data were processed

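RNA from 3 Ogt-KD and 3 control mice was sequenced with an Illumina TruSeq library kit, per the labels' protocols. The authors deposited 1 table with raw read counts per Ensembl gene, and for the counting tool and its strand setting the sources used here have no entry. Bowtie2 2.0.6, TopHat2 2.0.9 and mm9 are named in the submitters' processing notes, but the coordinates of all 10 members are those of GRCm38. The deposited FPKM are the authors' counts over gene length, an other unit given in bases, and over 1 constant per library, as the values show. The authors' mean signal per group was not printed. The authors' deposited log2 fold change (Ogt-KD over control) was read beside the fits, and so were the p-value and adjusted p that the authors deposited.

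Genes with enough counts (filterByExpr, 16075 of 54532) were tested in edgeR 4.0.16 (R 4.3.3) with TMM scaling, robust quasi-likelihood fits and Benjamini-Hochberg adjustment over all of them, at 0.05. The steps were run on simulated data with changes larger than those of the members and without deviations shared by replicate number. That run is therefore no measure of power for the members. Alternatives were DESeq2 1.42.0, limma 3.58.1 on counts and on log2(FPKM + 0.1), other scalings and filters, a block for the replicate number, and libraries left out. Deviations from the group means correlated at 0.109, 0.346 and 0.523 between libraries of the same number, so the block is given beside the main test, although nothing in the labels pairs the mice and Ogt-KD replicate 1 correlated better with control replicate 2 (0.267). Chain ratios were tested by exact two-sided permutation of 3 against 3 libraries.

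Members and lists were chosen with earlier results of these data known. Named were all members, the genes of each list that passed a test with or without the block, and the 4 of each list with the smallest p. Named too were the 5 profiles closest to Il10ra and to Il4ra among genes with an average log2 CPM of at least 1. Clones, predicted genes (Gm or Rik) and genes of T cell receptors and immunoglobulins were left out of that ranking. Jak3, Clcf1, Il21, Gfi1, Socs3, Fos and Il22ra1 were added after their values were seen. 1 gene of the STAT list is not reported here. Codons were read from GENCODE M21 transcripts.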

Additional observations from a re-analysis of the deposited data

How the results depend on the processing

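Across all 16075 genes the unblocked edgeR test called 1 gene higher and 0 lower. DESeq2 called 92 higher and 34 lower, the replicate block 32 higher and 15 lower, no filter on counts 4 higher, and the test without replicate 3 of both groups 13 higher and 22 lower. Leaving out 1 library at a time gave 1 to 2 higher. The block without replicate 1, 2 or 3, chosen after seeing the data, gave 168, 2 and 184 higher and 127, 0 and 111 lower, so the number of blocked calls rests on which pair is in the fit. Other scalings, limma and the stricter filter gave the same counts as the unblocked test.

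Il10ra ran from 0.66 to 0.87 on the log2 scale over all alternatives and Il2rb from 0.44 to 0.61, always above 0, with adjusted p from 0.00192 for Il10ra and 0.0370 for Il2rb, both in DESeq2, up to 0.999993 for both without control replicate 1. The differences close to 0 turned their sign when single libraries were left out. Their lowest and highest values were -0.16 and 0.18 for Il2rg, -0.22 and 0.13 for Il21r, -0.14 and 0.022 for Il10rb, -0.083 and 0.17 for Il27ra, -0.23 and 0.021 for Il6st, -0.12 and 0.0018 for Ets1, -0.16 and 0.076 for Stat3, -0.088 and 0.18 for Stat4, -0.046 and 0.18 for Stat5a, -0.15 and 0.17 for Jak3, -0.20 and 0.091 for Clcf1, and -0.62 and 0.031 for Il21. The differences in log2 ratio ran from -0.46 to 0.0088 for Il4ra to Il2rg, from -0.77 to 0.090 for Il7r to Il2rg, from -0.23 to 0.075 for Il6ra to Il6st and from -0.061 to 0.13 for Il2ra to Il2rb. Without replicate 3 of both groups Il2rg was at 0.077, Il21r at 0.070, Jak3 at 0.081 and Stat4 at -0.073, and in the block without replicate 3 they were at 0.079, 0.069, 0.088 and -0.063. Il27ra was at -0.024 and -0.012 in the block without replicate 1 and without replicate 2. The cause was not tested. With 3 libraries a group, an interval such as that of Il7r, from -0.85 to 0.41, leaves changes of either sign undetected.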
